A study of Mus musculus with 14 samples.

Results

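The genes described here are the nuclear-encoded subunits of the oxidative phosphorylation machinery. They were taken by symbol from the deposited expression tables, namely the Nduf genes of series a, b, c, s and v, the Sdh, Uqcr and Atp5 genes, Cyc1, and the Cox4 to Cox8 genes. This gave 82 of 49585 listed genes: 35 of complex I, 4 of complex II, 9 of complex III, 18 of complex IV and 16 of complex V. Ndufa4 was counted with complex IV, to which its protein belongs despite its name. Atp5s is only named like a subunit and was kept in the counts of complex V and of all members. No expression value was used in the choice.

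The respiratory chain sits in the inner mitochondrial membrane. Complexes I and II take electrons from NADH and succinate, complex III passes them to cytochrome c, complex IV hands them to oxygen, and complex V (ATP synthase) uses the proton gradient to make ATP. Complexes I, III, IV and V also contain subunits encoded by the mitochondrial genome, whereas complex II is wholly nuclear. Skeletal muscle has its own isoforms of several complex IV subunits, and slow and fast oxidative fibres carry more mitochondria than fast glycolytic fibres.

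RNA-seq was done on total RNA of mouse hind limb skeletal muscle in 4 groups of 3 libraries: wild type (WT) uninjured, Myf6 knockout (KO) uninjured, WT injured and KO injured. Myf6, also called MRF4, is a myogenic transcription factor of the muscle fibre. Each genotype has 3 animal numbers, which occur with the letter L in the uninjured and R in the injured libraries and were read as the legs of 1 animal. The kind of injury, the time after it, the strain, the age and the KO allele are not stated in the labels. WT and KO animals are different animals, so genotype and litter or batch cannot be told apart. In addition, 1 ChIP-seq library with a Flag antibody from primary myotubes, with 1 control, gave a list of Myf6 peaks.

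Libraries held between 1880087 and 49392472 assigned reads, as recovered from the deposited values, with WT uninjured 2 the shallowest. Levels are given in RPM, the reads of a gene scaled to the assigned reads of its library. RPM values are not divided by gene length, so levels are not compared between genes. Myf6 itself fell by 3.90 on the log2 scale in uninjured KO muscle (adjusted p = 0.0215) and fell by 4.22 in injured KO muscle (adjusted p = 0.00697; limma on log2(RPM + 1) with Benjamini-Hochberg adjustment), as the labels of both genotypes state. Genes named mt-, those of the mitochondrial genome, took from 3.63% to 23.2% of the reads of a library. All 7 muscle fibre markers were present. They summed to 80518 to 96050 RPM in WT and 124005 to 134467 RPM in KO uninjured muscle, higher in KO without overlap, and to 86623 to 105734 against 85823 to 119654 RPM in injured muscle, with overlap. Myh4, the largest part of the sums, was at 40979 to 60748 against 59418 to 93275 RPM in uninjured muscle, with overlap. Of the 7 markers, 2 were higher in KO uninjured muscle without overlap, where 6.2% of all genes were, and 2 had estimates below 0. The part of these marker differences in the levels below was not tested. In whole tissue, fewer cells of a type and less RNA per cell cannot be told apart.

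Of the 82 genes, 79 passed the filter of at least 1 RPM in at least 3 libraries in both comparisons of KO with WT. The other 3 were complex IV isoforms. Cox6b2, known as the testis isoform, reached 1.71 RPM at most. Cox7b2 was detected in 1 library only, at 0.0607 RPM, and Cox8c had no read in any of the 12 libraries, against a floor of 3 reads that ranges from 0.0607 to 1.60 RPM.

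All 82 genes together took between 3.16% and 4.37% of the assigned reads. Their sum was 41043, 42073 and 43660 RPM in WT uninjured and 39075, 39210 and 32272 RPM in KO uninjured muscle. In injured muscle it was 41214, 38899 and 40135 RPM in WT and 33561, 31553 and 34743 RPM in KO. Every KO library thus lay below every WT library in both states, with a KO mean of 0.872 of the WT mean in uninjured and 0.830 in injured muscle.

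The uninjured difference depended on how libraries were scaled, and the injured one did not. With upper quartile or TMM scaling the uninjured ratio became 1.08 or 1.03 and the groups overlapped, and scaled to reads outside the mt- genes it was 0.786 without overlap. In injured muscle the same 3 scalings gave 0.830, 0.823 and 0.825, each without overlap. No p-value is given for a sum over members.

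**Figure D1:**
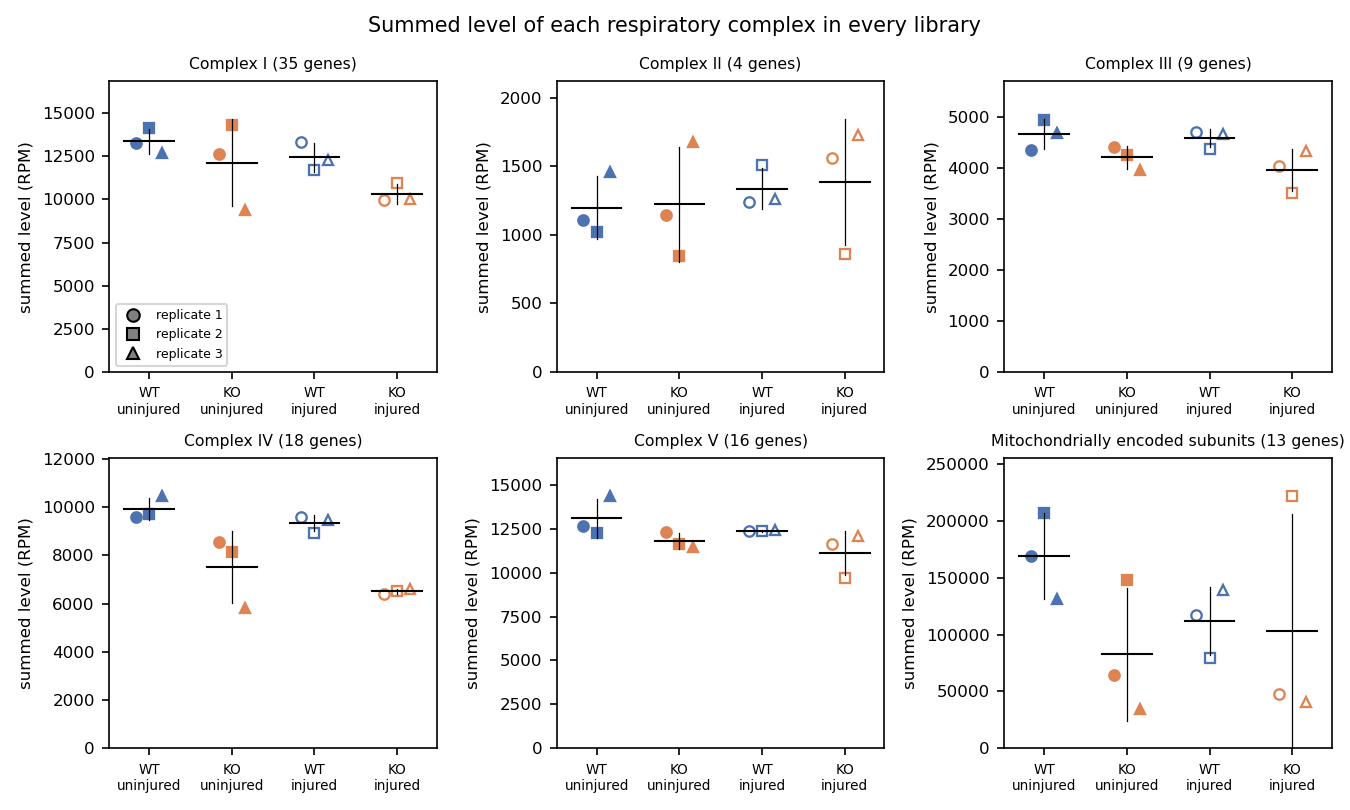
Summed level in RPM (y axes) of the nuclear-encoded members of each complex and of the 13 mitochondrially encoded subunits in the 4 groups (x axes). Symbols are libraries (replicates 1 to 3), horizontal lines are group means and vertical lines 1 SD (n = 3). The complex IV sums of the KO injured libraries, 6410 to 6591 RPM, lie below all WT injured values.

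Complex IV, cytochrome c oxidase, had the lowest ratio of KO to WT among the 5 sums in both states and under all 4 scalings, though with upper quartile scaling the other 4 uninjured sums lay further from 1, above it, and with TMM scaling that of complex II did. It stood at 9605, 9709 and 10463 RPM in WT uninjured against 8567, 8153 and 5822 RPM in KO uninjured muscle. In injured muscle the values were 9578, 8940 and 9474 RPM in WT and 6410, 6500 and 6591 RPM in KO. The injured ratio of KO to WT means was 0.697, and between 0.691 and 0.696 under the other 3 scalings. The uninjured ratio was 0.757 without overlap, but 0.95 with upper quartile and 0.900 with TMM scaling, both with overlap.

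The sums of complexes I, III and V overlapped between genotypes in uninjured muscle (ratios 0.906, 0.904 and 0.899), and with upper quartile or TMM scaling these ratios were above 1, from 1.05 to 1.14. Scaled to reads outside the mt- genes, the uninjured sums of complexes III and V were lower in KO without overlap (0.811 and 0.809). In injured muscle each of the 3 was lower in all KO libraries, at ratios of 0.829, 0.863 and 0.899. Scaled to reads outside the mt- genes, the injured complex I sums overlapped, and with upper quartile scaling the complex V sums did. The sums of complex II, succinate dehydrogenase, overlapped in both states, at ratios of 1.02 and 1.03, and in uninjured muscle those of complexes I, III and V did too. With upper quartile scaling the KO uninjured sums of complex II were higher without overlap (1.19), and with scaling outside the mt- genes its uninjured ratio was 0.909. The sums of the 13 mitochondrially encoded subunits overlapped in both states, at ratios of 0.488 in uninjured and 0.925 in injured muscle, with 131123 to 206922 RPM in WT and 34853 to 148123 RPM in KO uninjured muscle, and 79571 to 139098 against 40898 to 222011 RPM in injured muscle. Some of the 13 added few reads to these sums. Over all libraries mt-Co3 was at 7.62 to 94.7 RPM and mt-Atp6 at 6.30 to 36.5 RPM. Both mt-Atp8 and mt-Nd4l were at 2.13 RPM or less, while mt-Co1 alone held 6990 to 59191 RPM. Why so few reads were counted on some of them was not tested.

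In uninjured muscle no member passed an adjusted p of 0.05 in the comparison of KO with WT. In the same fit 35 of 12460 genes (0.281%) passed. The smallest adjusted p of a member was 0.0923, for Atp5l. Before adjustment, 9 members were lower and 1 higher at p under 0.05, where 10.7% and 3.53% of all genes were lower and higher. The median log2 change of the 79 members was -0.18, and that of all genes was also -0.18. Lower estimates were found for 55 of 79 members and for 63.2% of all genes. All KO libraries lay below all WT libraries for 14 members (17.7%, background 15.5%), and above them for 1 member, Cox4i2 (background 6.2%). These shares were near the background. Their median was above 0 with upper quartile scaling (0.08), TMM scaling (0.02), edgeR (0.15) and DESeq2 (0.15), so it has no direction that holds across scalings. With upper quartile scaling 7 members (background 11%) and with TMM scaling 9 members (background 12.3%) were lower without overlap. Some other fits called members, all lower: 2 by DESeq2 (Atp5l and Ndufs4, background 5.33%), 3 with scaling outside the mt- genes (Atp5l, Cox7a2 and Ndufs4, background 1.6%) and 4 with all 12 libraries in 1 fit (background 1.25%), while edgeR called 0.

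In injured muscle, too, no member passed an adjusted p of 0.05 (34 of 12625 genes, 0.269%). The smallest adjusted p was 0.152, for Ndufa12. The median log2 change of the members was -0.28, against 0.01 for all genes, and lay between -0.32 and -0.27 in every alternative limma, edgeR or DESeq2 fit. Estimates were below 0 for 67 of 79 members, against 48% of all genes. Before adjustment, 18 members were lower and 0 higher at p under 0.05 (background 5.26% and 5.06%). The KO libraries lay below all WT libraries for 29 of 79 members (36.7%, background 8.63%) and above them for 0 (background 8.29%). Here the share of members was higher than the background, while no single gene passed the adjusted test by limma or by edgeR (0 members). By DESeq2 on the recovered reads 12 members passed, all lower (3.39% of the genes tested), and 5 members had a q-value under 0.05 in the authors' deposited table, also all lower in KO (0.454% of the genes listed): Atp5l, Cox6a2, Cox7a2, Ndufa12 and Uqcrb. The last share is over all 49585 listed genes, most of which did not pass the filter, so it is not like the other shares.

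The KO injured library 2 stood apart from the other KO injured libraries. It had 23.2% of its reads on mt- genes, where the other 2 had 4.95% and 4.30%. Without it limma called 22 members in injured muscle, all lower, where it called 19% of all genes. The number of members lower without overlap then was 47, where 26.3% of all genes were. The part of that library in the result was not tested beyond leaving it out. The uninjured library of the same animal number, KO uninjured 2, also had the highest mt- share of its group, 15.3% against 6.76% and 3.63%.

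**Figure D2:**
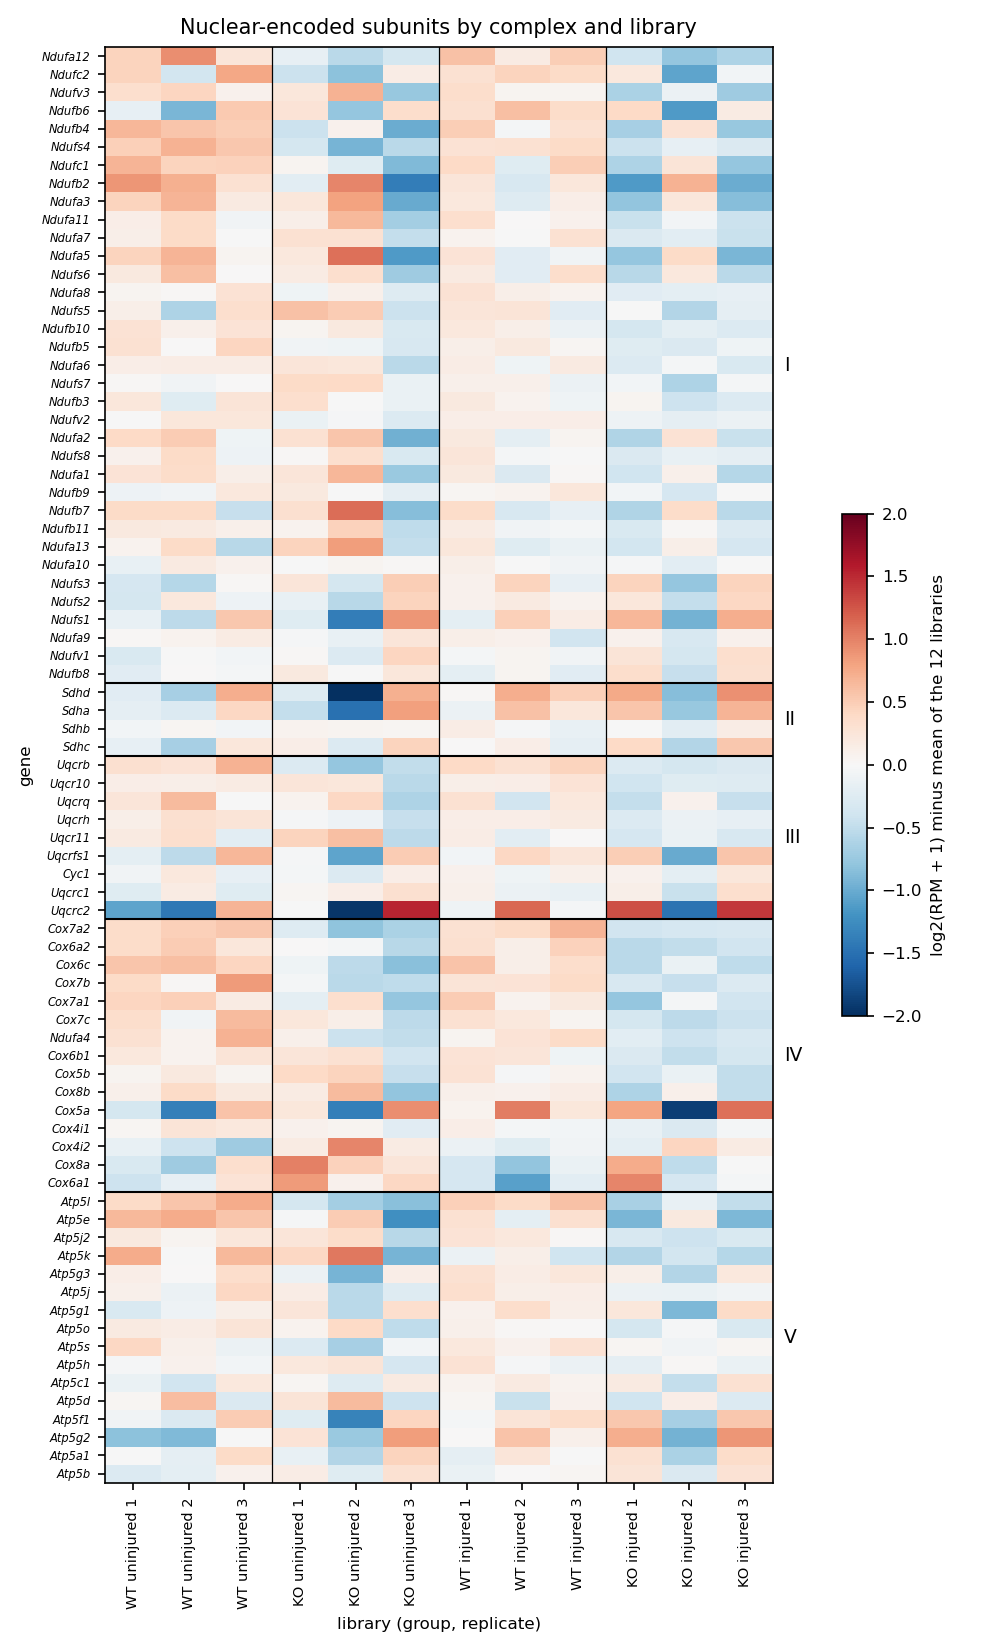
Level of each of the 79 subunit genes that passed the filter (rows, ordered by complex I to V and by the injured KO change within a complex) in the 12 libraries (columns). Colour is log2(RPM + 1) minus the gene's mean over the 12 libraries, red above and blue below. The rows of Cox7a2 and Uqcrb, for example, are blue in all 6 KO libraries, while Uqcrc2, Sdhd and Cox5a change sign between libraries of 1 group.

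Complex I, NADH dehydrogenase, is built from core subunits, among them those that carry the flavin and the iron-sulphur clusters, and from accessory subunits around them. In injured muscle 10 of 28 accessory members had KO below all WT libraries, with a median log2 change of -0.35 (background 8.63%). Among the 7 nuclear-encoded core members these were 2, Ndufs8 and Ndufv2, with a median of -0.09. In uninjured muscle the medians were -0.20 for accessory and -0.0046 for core members, and 5 of 28 and 1 of 7 were lower without overlap, near the background of 15.5%. The difference between core and accessory members was not tested.

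Ndufs4, an accessory subunit whose loss is known to impair complex I assembly, was the complex I member with the lowest estimate in uninjured muscle. Its level was 397, 463 and 417 RPM in WT against 224, 150 and 197 RPM in KO uninjured libraries. In injured libraries it was 348, 354 and 373 RPM against 212, 256 and 233 RPM. All 6 KO values were below all 6 WT values. The log2 changes were -1.17 (SE 0.25, adjusted p = 0.0927) and -0.62 (SE 0.16, adjusted p = 0.279; limma).

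At the other end of complex I, Ndufs3, a core subunit, had the highest uninjured estimate, 0.42 (SE 0.30), and Ndufb8 the highest injured one, 0.20 (SE 0.26). Ndufs3 was at 154, 131 and 198 RPM in WT and 231, 153 and 273 RPM in KO uninjured muscle, and at 207, 265 and 174 against 265, 114 and 265 RPM in injured muscle. Ndufb8 was at 247, 297 and 242 RPM in WT and 363, 207 and 356 RPM in KO injured muscle, and at 242, 286 and 277 against 326, 283 and 334 RPM in uninjured muscle. In each of these comparisons the groups overlapped. Ndufb9, the complex I member with the highest mean RPM, overlapped in uninjured muscle (656, 666 and 814 against 803, 695 and 619 RPM). In injured muscle its KO values of 675, 557 and 702 RPM were below its WT values of 725, 740 and 820 RPM.

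Complex II showed no member whose groups were apart in either state. In uninjured muscle 15.5% of all genes were lower and 6.2% higher without overlap, and in injured muscle 8.63% and 8.29%. For the 4 members of complex II, 0 is near those shares. Sdhb, the iron-sulphur subunit, was the steadiest of all 79 members, with 1.28 times between its lowest (409 RPM) and highest library (524 RPM). Sdhc and Sdhd anchor the complex in the membrane. Sdhc was at 217, 152 and 284 RPM in WT and 266, 201 and 332 RPM in KO uninjured muscle, and at 243, 268 and 214 against 319, 161 and 352 RPM in injured muscle. Sdhd was at 134, 98.9 and 259 against 130, 30.1 and 256 RPM in uninjured and at 158, 260 and 218 against 264, 86.7 and 296 RPM in injured muscle. Within each KO group Sdhd therefore spread more than the group means differed. Its log2 changes were -0.58 (SE 0.69) and -0.13 (SE 0.48).

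In complex III, the cytochrome bc1 complex, Uqcrb had the lowest estimate in both states. This small subunit lies near the quinone site and is needed to assemble the complex. Its level was 496, 482 and 646 RPM in WT uninjured and 331, 233 and 282 RPM in KO uninjured libraries. Injured libraries had 526, 495 and 545 RPM in WT and 330, 312 and 327 RPM in KO. The KO values formed a separate, lower group in each state, at 52.0% and 61.9% of the WT mean. The log2 changes were -0.94 (SE 0.25, adjusted p = 0.159) and -0.69 (SE 0.16, adjusted p = 0.218; limma).

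Uqcrh, the hinge subunit, was also below all WT libraries in both states, at 75.0% and 79.7% of the WT mean. Of the 2 nuclear-encoded members that carry redox centres, Cyc1 and Uqcrfs1, neither did so in either state. Uqcrq, the complex III member with the highest mean RPM, had overlapping groups: 795, 1049 and 668 against 707, 904 and 440 RPM in uninjured and 835, 517 and 783 against 484, 713 and 491 RPM in injured muscle.

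For complex IV, 9 of 15 tested members had KO below all WT libraries in injured muscle (background 8.63%) and 4 of 15 in uninjured muscle (background 15.5%), with medians of -0.52 and -0.22. The 3 muscle and heart isoforms, Cox6a2, Cox7a1 and Cox8b, all had estimates below 0 in both states (medians -0.65 injured and -0.56 uninjured), though Cox8b was at 0.04 with upper quartile scaling, 0.19 with edgeR and 0.20 with DESeq2 in uninjured muscle. All 5 members with no isoform among the genes taken, Cox5a, Cox5b, Cox6c, Cox7c and Ndufa4, had estimates below 0 in injured muscle, 4 of them without overlap. The exception, Cox5a, was at 188, 367 and 212 RPM in WT and 313, 48.2 and 388 RPM in KO injured muscle, with only KO injured 2 below all WT libraries. In uninjured muscle 3 of the 5 had estimates below 0 and 1 was lower without overlap.

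Cox7a2, the broadly expressed form of subunit 7a, had the lowest estimate of complex IV in both states. It was at 362, 391 and 408 RPM in WT and 233, 160 and 182 RPM in KO uninjured muscle. The injured values were 347, 366 and 449 RPM in WT and 214, 222 and 226 RPM in KO. The highest KO library was thus well below the lowest WT library. The log2 changes were -1.03 (SE 0.24, adjusted p = 0.123) and -0.80 (SE 0.17, adjusted p = 0.206; limma).

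Cox6a2, the muscle form of subunit 6a and the complex IV member with the highest mean RPM, was at 1598, 1765 and 1453 RPM in WT uninjured and 1243, 1212 and 842 RPM in KO uninjured muscle. In injured muscle it was at 1558, 1354 and 1708 RPM in WT and 857, 886 and 955 RPM in KO. Its groups did not overlap in either state, and its log2 changes were -0.56 (SE 0.26, adjusted p = 0.37) and -0.77 (SE 0.19, adjusted p = 0.259; limma). With upper quartile or TMM scaling it no longer lay below WT in both states.

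Cox6a1, Cox8a and Cox4i2 were the 3 tested complex IV members with estimates above 0 in both states. Cox6a1, the form of subunit 6a found outside muscle and heart, was at 45.5, 54.3 and 73.7 RPM in WT and 110, 65.0 and 81.2 RPM in KO uninjured muscle, and at 48.0, 28.2 and 52.4 against 121, 48.3 and 59.6 RPM in injured muscle. Cox8a, the matching form of subunit 8, was at 53.6, 40.4 and 84.2 against 134, 91.9 and 79.1 RPM and at 52.6, 38.2 and 60.3 against 111, 46.2 and 66.1 RPM. Both overlapped in both states, and Cox8a was the 1 member counted above as higher in uninjured muscle before adjustment (adjusted p = 0.332; limma). Cox4i2, a form known from lung and from low oxygen, was near the filter, with 2.77, 2.13 and 1.55 against 3.69, 7.24 and 3.67 RPM in uninjured and 2.85, 2.51 and 2.95 against 2.62, 4.59 and 3.66 RPM in injured muscle.

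In complex V, Atp5l, the g subunit of the membrane part, had the smallest adjusted p of any member in uninjured muscle. Its WT uninjured level was 221, 250 and 286 RPM and its KO uninjured level 133, 106 and 94.9 RPM. In injured muscle it was 236, 222 and 255 RPM in WT and 108, 153 and 121 RPM in KO. KO muscle had 44.0% and 53.5% of the WT mean, with no overlap. The log2 changes were -1.18 (SE 0.25, adjusted p = 0.0923) and -0.91 (SE 0.19, adjusted p = 0.185; limma).

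In the catalytic head of ATP synthase, Atp5b is the beta subunit that makes ATP and the member with the highest mean RPM of all. It was at 1975, 2083 and 2532 RPM in WT and 2645, 2004 and 2946 RPM in KO uninjured muscle. Injured libraries had 2177, 2398 and 2441 against 2843, 1941 and 2906 RPM, again with overlap. None of the 5 head and central stalk members (Atp5a1, Atp5b, Atp5c1, Atp5d and Atp5e) was free of overlap in injured muscle, where their median was -0.07, and Atp5e alone was in uninjured muscle. Among the 3 small membrane subunits Atp5j2, Atp5k and Atp5l, 2 had KO below all WT libraries in injured muscle (median -0.52, background 8.63%). In uninjured muscle 1 of the 3 did (median -0.29, background 15.5%). Of the 4 peripheral stalk members 2 did in injured (median -0.20) and 0 in uninjured muscle (median -0.28). The difference between these roles was not tested.

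In both states, 11 of 79 members (13.9%) had every KO library below every WT library, where 3.16% of 12214 genes did. No member was above all WT libraries in both states (background 2.13%). The uninjured and injured libraries of a genotype share animal numbers and were read as the same animals, so the states are not taken as independent. The 11 were Ndufa12, Ndufb5, Ndufs4 and Ndufv2 of complex I, Uqcrb and Uqcrh of complex III, Cox6a2, Cox6c, Cox7a2 and Cox7b of complex IV, and Atp5l of complex V. Upper quartile scaling left 6 such members (3.08% of genes), TMM scaling 8 (3.26%) and scaling outside the mt- genes 12 (3.55%). Without KO injured 2 there were 14, where 11.3% of genes were. Atp5l, Cox7a2, Cox7b, Ndufs4 and Uqcrb were among them under all 4 scalings.

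Cox6c and Cox7b encode small membrane subunits of complex IV. Cox6c was at 1055, 1093 and 967 RPM in WT and 674, 502 and 402 RPM in KO uninjured muscle, and at 1070, 775 and 920 against 496, 653 and 503 RPM in injured muscle. Cox7b was at 774, 603 and 1080 against 579, 410 and 417 RPM in uninjured and at 710, 723 and 777 against 476, 432 and 490 RPM in injured muscle. Their KO means were between 50.6% and 63.3% of the WT means. Ndufb5 and Ndufv2 were nearer to WT, with KO means of 75.0% and 81.3% in uninjured and 79.9% and 83.0% in injured muscle.

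**Figure D3:**
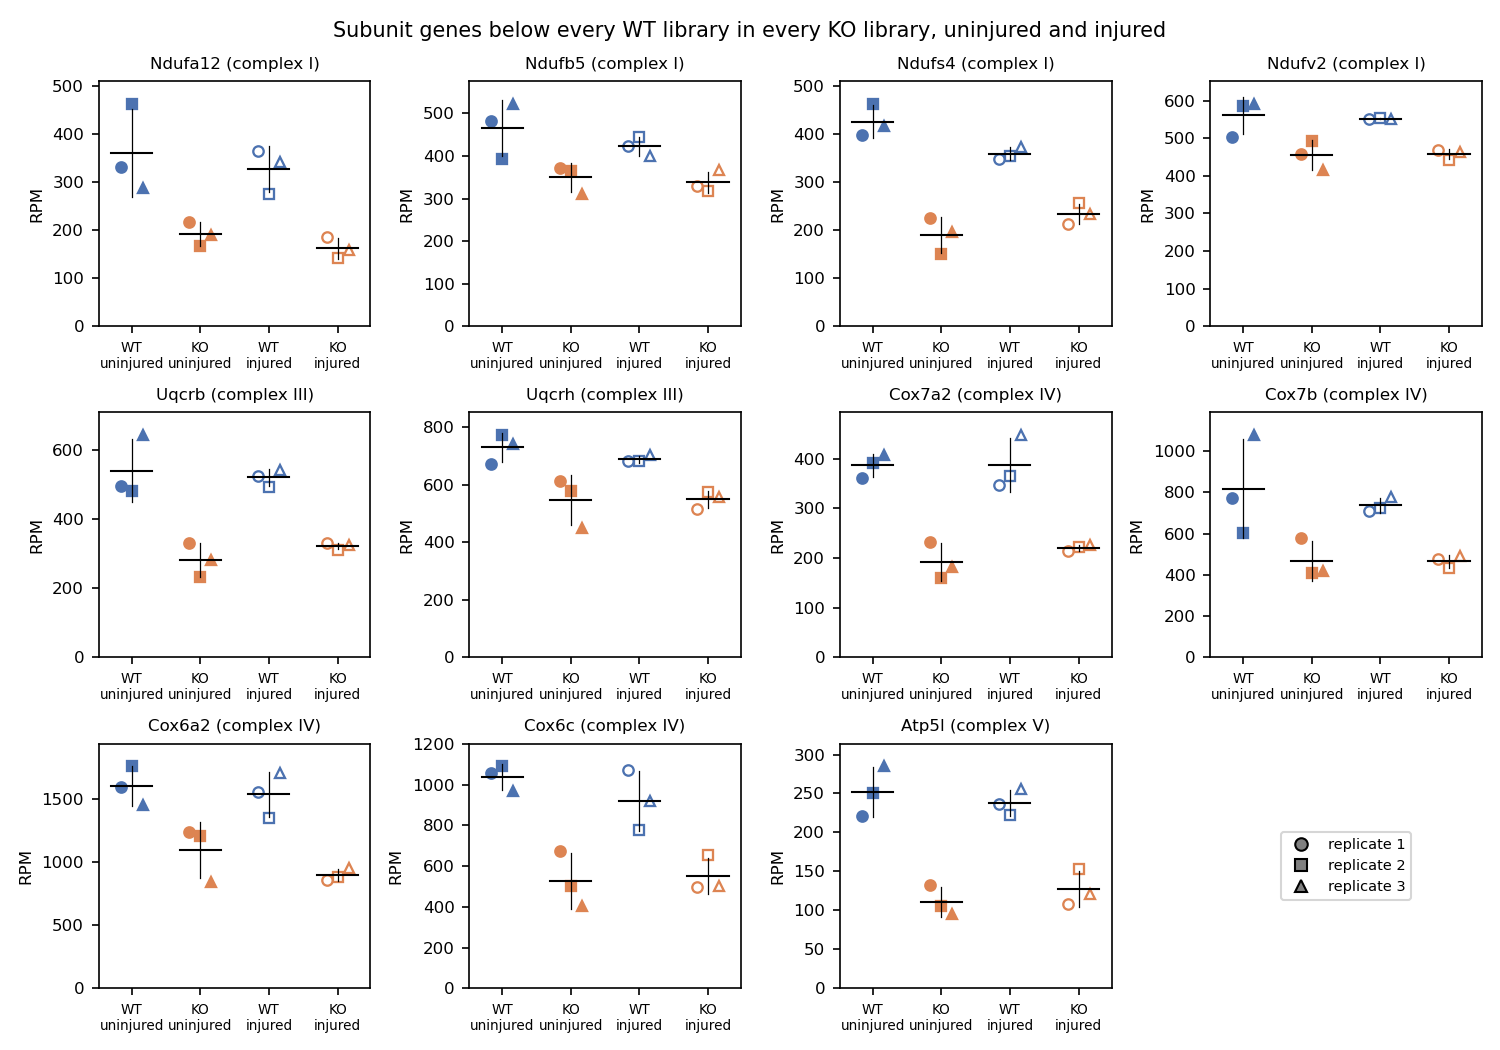
Levels in RPM (y axes, from 0) of the 11 subunit genes whose KO libraries all lie below the WT libraries in both states, by group (x axes). Symbols are libraries, horizontal lines group means and vertical lines 1 SD (n = 3). The KO means of Atp5l, Ndufs4, Uqcrb and Cox7a2 lie between 44.0% and 65.2% of the WT means.

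Ndufa12, a complex I accessory subunit, was lower in all KO libraries, while a pseudogene named after it was higher in all of them. This gene was looked at more closely after its values had been seen. Ndufa12-ps is a processed pseudogene listed in the tables as Gm15920 (ENSMUSG00000080893.1). In GRCm38.p6 it lies on chromosome 5 (130188393 to 130188888), while Ndufa12 lies on chromosome 10 (94199035 to 94221440), the chromosome of Myf6 (107492848 to 107494723). Ndufa12 was at 331, 463 and 287 RPM in WT and 217, 167 and 191 RPM in KO uninjured muscle, and at 365, 274 and 341 against 185, 142 and 158 RPM in injured muscle. Those values do not overlap, with log2 changes of -0.89 (SE 0.27, adjusted p = 0.196) and -1.01 (SE 0.19, adjusted p = 0.152; limma).

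The pseudogene had 0.933, 0.532 and 0.198 RPM in WT uninjured and 94.2, 182 and 39.8 RPM in KO uninjured muscle. In injured muscle it had 0.450, 0.449 and 0.153 RPM in WT and 48.0, 184 and 47.8 RPM in KO. Every KO library was thus far above every WT library. The pseudogene took 0.0449% to 0.281% of the reads of both genes in WT libraries and 17.3% to 56.4% in KO libraries. At the extremes, 29 of its reads faced 10279 of Ndufa12 in WT uninjured 1 (95% Wilson interval 0.196% to 0.404%), and 3321 faced 2572 in KO injured 2 (55.1% to 57.6%). These intervals cover counting error only.

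Added together, Ndufa12 and Ndufa12-ps were at 332, 463 and 287 RPM in WT and 311, 348 and 231 RPM in KO uninjured muscle, and at 366, 275 and 341 against 233, 326 and 206 RPM in injured muscle. These sums overlapped in both states. Their log2 differences were -0.27 and -0.38. An exact two-sided permutation test of the summed RPM values (n = 3 against 3) gave p = 0.5 and p = 0.2, where 0.1 is the smallest p that 3 against 3 can give. How reads that match both genes were assigned is not stated in the sources used here, so the level of Ndufa12 alone in KO is uncertain, and its part in the counts above was not tested. Of 13 pseudogenes that the RefSeq gene table names after a member, 9 were found in the deposited tables, and the other 8 of these were at 3.46 RPM or less in every library. Pseudogenes without such a name were not examined.

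**Figure D4:**
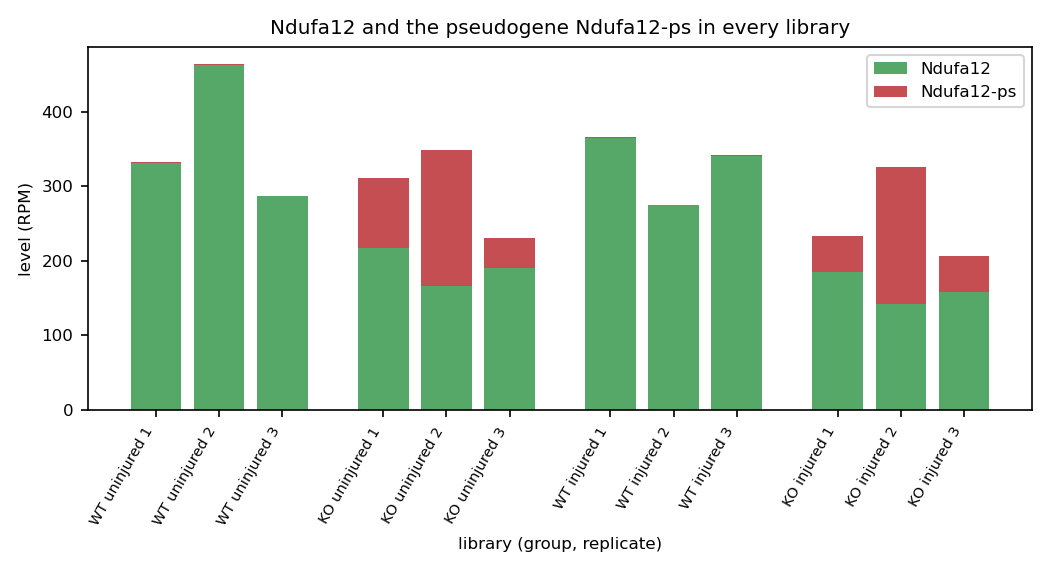
Level in RPM (y axis, from 0) of Ndufa12 (green) and of the pseudogene Ndufa12-ps (red, stacked on top) in each of the 12 libraries (x axis). The red part is at most a thin line in WT libraries, where it is under 1 RPM, and reaches 182 and 184 RPM in the KO libraries 2.

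Ratios between isoforms of 1 subunit within a library do not depend on how that library is scaled. Of the 7 pairs with both isoforms at 1 RPM or more in every library, Cox6a2 over Cox6a1 was lower in all KO libraries in both states. The ratio was 35.1, 32.5 and 19.7 in WT and 11.3, 18.6 and 10.4 in KO uninjured muscle, and 32.5, 48.0 and 32.6 against 7.10, 18.3 and 16.0 in injured muscle. The log2 differences were -1.12 and -1.54, each with an exact two-sided permutation p of 0.1, the smallest possible, and adjusted p = 0.175 and 0.525 over the 7 pairs.

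Cox8b over Cox8a, the same kind of pair for subunit 8, had differences of -1.03 and -0.95 with overlap in both states. For subunit 7a, Cox7a1 over Cox7a2 had differences of 0.46 and 0.15, also with overlap. Cox7a1 was at 695, 723 and 582 against 452, 654 and 303 RPM in uninjured and 733, 542 and 594 against 304, 504 and 396 RPM in injured muscle. Cox8b was at 917, 1116 and 977 against 955, 1325 and 497 RPM and at 919, 913 and 947 against 560, 919 and 606 RPM. In neither pair did all KO ratios fall on 1 side.

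Cox4i2 over Cox4i1 was higher in all KO libraries in uninjured muscle (log2 difference 1.34, exact permutation p = 0.1) and overlapped in injured muscle (0.52). Cox4i1, the common form, was at 1067, 1245 and 1199 against 1100, 1076 and 888 RPM in uninjured and 1133, 1006 and 992 against 938, 851 and 1007 RPM in injured muscle. Atp5g1, Atp5g2 and Atp5g3 encode the same c-ring protein of ATP synthase with different import sequences. Atp5g3 over Atp5g2 was 20.2, 19.4 and 13.2 in WT and 7.89, 9.13 and 6.29 in KO uninjured muscle (log2 difference -1.17, exact permutation p = 0.1), and overlapped in injured muscle (-0.31). Atp5g1 over Atp5g3 was higher in all KO uninjured libraries (0.57) and overlapped in injured muscle (0.03), and Atp5g1 over Atp5g2 overlapped in both.

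The levels behind these ratios overlapped for each c-ring gene. Atp5g1 was at 257, 296 and 346 against 375, 217 and 400 RPM in uninjured and 338, 404 and 343 against 373, 169 and 412 RPM in injured muscle. Atp5g2 was at 43.1, 41.0 and 76.2 against 92.4, 45.7 and 138 RPM and at 76.9, 114 and 82.4 against 128, 39.1 and 142 RPM. Atp5g3, which had the most reads of the 3, was at 872, 796 and 1007 against 729, 417 and 870 RPM and at 979, 880 and 924 against 857, 526 and 916 RPM.

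Members of 1 complex did not move as a block from library to library. Over the 12 libraries the highest value was a median of 2.38 times the lowest, and this ratio ranged from 1.28 for Sdhb to 11.3 for Uqcrc2. Uqcrc2, a complex III core protein, was at 57.3, 44.1 and 193 RPM in WT uninjured, 119, 30.7 and 347 RPM in KO uninjured, 113, 268 and 117 RPM in WT injured and 297, 42.7 and 322 RPM in KO injured muscle. Its lowest 3 libraries were KO uninjured 2, KO injured 2 and WT uninjured 2. These libraries had 15.3%, 23.2% and 22.3% of their reads on mt- genes. Its highest 3, KO uninjured 3, KO injured 3 and KO injured 1, had 3.63%, 4.30% and 4.95%.

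Sdhd (30.1 to 296 RPM) and Cox5a (48.2 to 388 RPM) were likewise lowest in those first 3 libraries, and Sdha (122 to 609 RPM) and Ndufs1 (58.4 to 287 RPM) had highest values 4.97 and 4.91 times their lowest. Ndufb2, Ndufa5 and Atp5e went the other way. Ndufb2 was at 46.0 RPM in KO uninjured 3 and 240 RPM in KO uninjured 2, Ndufa5 at 247 and 1169 RPM, and Atp5e at 572 and 1905 RPM. For these 8 genes the libraries of 1 genotype differed by more than the genotype means did. What the mitochondrial share has to do with these levels was not tested.

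**Figure D5:**
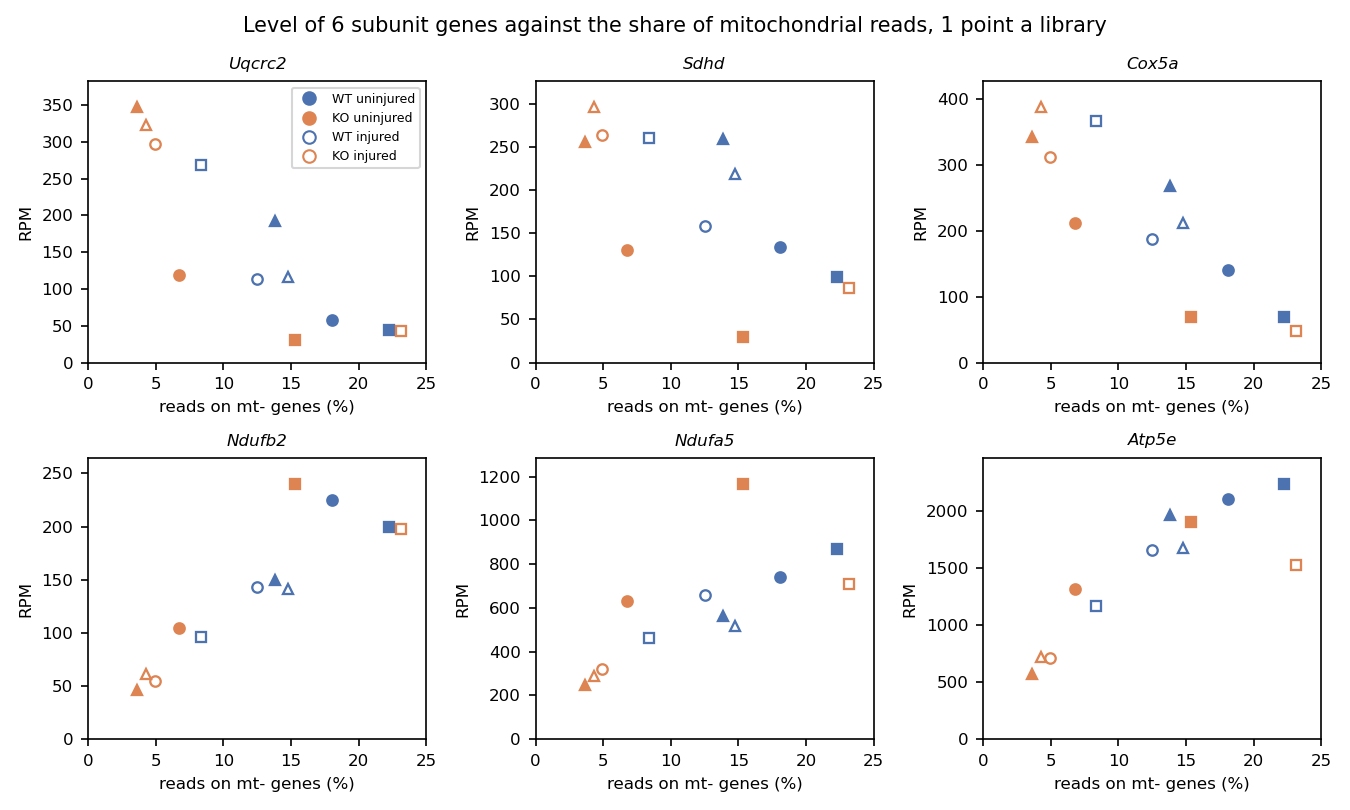
Level in RPM (y axes, from 0) of 6 subunit genes against the percentage of reads on genes of the mitochondrial genome (x axes), with 1 point for each of the 12 libraries, coloured by genotype and filled where uninjured. The 3 lowest libraries of Uqcrc2, Sdhd and Cox5a have 15.3%, 22.3% and 23.2% mitochondrial reads, and the 3 lowest of Ndufb2, Ndufa5 and Atp5e have 3.63%, 4.30% and 4.95%.

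KO uninjured 3 held the lowest value of the 12 libraries for 34 of 79 members, KO injured 2 for 20 and KO uninjured 2 for 15. The last also held the highest value for 20 members. Each WT library held the lowest value of 0 to 3 members. Without KO uninjured 3 the uninjured median of the members was -0.02, against -0.18 with it.

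Injury itself was compared within each genotype in 1 fit of all 12 libraries, in which 80 members passed the filter. No member passed an adjusted p of 0.05 in WT, in KO or in the genotype by injury interaction, and no gene of 13337 did (0% in each). Before adjustment the count at p under 0.05 was 0 members in each, against 1.29%, 3.51% and 1.56% of all genes. This fit had no term for the animal. With the legs paired by animal, 1 member in WT, 5 in KO and 0 for the interaction were at p under 0.05. Of all 13337 genes 319, 889 and 280 were, and 0 passed after adjustment. The medians of the members were -0.04 in WT, -0.13 in KO and -0.08 for the interaction, beside 0.09, 0.29 and 0.20 for all genes. In KO the members' median was -0.51 with upper quartile, -0.42 with TMM scaling and -0.45 by edgeR, beside -0.02, 0.05 and 0.07 for all genes. Before adjustment edgeR had 16 of 80 and DESeq2 22 of 80 members at p under 0.05. Of all genes 432 of 13337 and 603 of 13323 were, with 0 adjusted calls in each. The complex IV sum per animal, on the log2 scale from the uninjured to the injured leg, moved by -0.0041, -0.12 and -0.14 in WT animals and by -0.42, -0.33 and 0.18 in KO animals.

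Genes that belong to the pathway without being caught by the names gave a mixed picture. Of 7 such subunits or partners found in the tables, 3 were below (background 15.5%) and 1 above all WT libraries (background 6.2%) in uninjured muscle. The lower ones were Usmg5, an ATP synthase subunit, at -1.19 (SE 0.25, adjusted p = 0.0935), Ndufab1, the mitochondrial acyl carrier protein, at -1.03 (SE 0.23, adjusted p = 0.108; limma) and 2010107E04Rik at -0.86. The higher one was Ndufa4l2, a paralogue of Ndufa4, at 5.41, 4.26 and 7.35 RPM in WT and 11.7, 11.4 and 9.38 RPM in KO (0.85, SE 0.34, adjusted p = 0.303; limma). In injured muscle 0 of 7 were free of overlap. None of 44 tested assembly factors, 14 enzymes of the tricarboxylic acid cycle, 16 (15 in injured muscle) regulators of respiratory genes such as Ppargc1a, Nrf1 and Esrra, or 11 tested mitochondrially encoded subunits passed an adjusted p of 0.05 in either state. Their median log2 changes were -0.05, 0.08, 0.06 and -1.22 in uninjured and -0.07, 0.08, 0.10 and -0.51 in injured muscle. Of the 11 mitochondrially encoded subunits 8 were lower before adjustment at p under 0.05 in uninjured (background 10.7%) and 0 in injured muscle (background 5.26%).

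Genes of fibre types and of other cell types were read in the same libraries. None of the 10 slow fibre genes passed the adjusted test. Before adjustment 6 were higher in KO in uninjured (background 3.53%) and 7 in injured muscle (background 5.06%), with medians of 0.96 and 1.995 and summed levels of 1400 to 1875 against 1892 to 4182 RPM and 403 to 1590 against 1846 to 6592 RPM. Myh7, the slow myosin heavy chain, had the smallest p, at 1.88 (adjusted p = 0.0694) and 2.76 (adjusted p = 0.213; limma). Of the 12 fast fibre genes, 10 had estimates above 0 in uninjured muscle (median 0.46) and 5 in injured muscle (median -0.04), and none passed the adjusted test.

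The 6 adipocyte markers summed to 1199 to 2008 against 1701 to 3187 RPM in uninjured and 383 to 1314 against 1377 to 2992 RPM in injured muscle, and the 7 macrophage markers to 102 to 190 against 57.1 to 94.0 RPM and 125 to 162 against 106 to 110 RPM. The 4 brown adipocyte markers summed to 20.2 to 74.0 against 84.2 to 199 RPM in uninjured and 24.0 to 50.1 against 25.8 to 165 RPM in injured muscle. Median log2 changes of the fibroblast, Schwann cell and erythroid markers were -0.70, -0.70 and -0.67 in uninjured and -0.24, 0.59 and -0.03 in injured muscle, and those of the endothelial and satellite cell markers -0.15 and -0.13, then 0.39 and -0.06. No gene of these 8 cell type lists passed the adjusted test. Of the 5 cardiac markers Myh6, a heart myosin heavy chain, passed the test in both states (6.64, adjusted p = 0.000206, and 6.40, adjusted p = 0.00697; limma), from 0.532 to 2.03 RPM in WT to 74.7 to 296 RPM in KO libraries, while Nppa and Ryr2 stayed below 1 RPM in every library. The part of fibre type or cell makeup in the levels of the respiratory genes was not tested.

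Myf6 binding was read from the peak list of the single Flag ChIP library from primary myotubes, which is another cell state than the muscle sequenced for RNA. Start sites were those of the RefSeq promoter table for GRCm38.p6, which held 65 of the 82 members. Of these 65, 6 (9.23%) had a peak summit within 5 kb of the start, as did 7.61% of 27025 genes: Atp5k, Cox8b, Ndufa4, Ndufb10, Ndufb11 and Sdhb. Within 1 kb there were 2, Cox8b and Ndufa4 (3.08%, against 2.73% of genes). These shares were near those of all genes. Fold enrichments are the authors', from the deposited peak list: 15.4 for the Atp5k peak at 1895 bp upstream, 11.3 for the Ndufa4 peak at 524 bp upstream, and 4.35 for the Cox8b peak at 11 bp upstream, a fold that 5.53% of the 12898 peaks fell short of.

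None of the 8 members with a promoter entry that were below WT in both states had a peak within 5 kb. The promoter of Cox8b, the muscle isoform with a peak at its start, is shown with those of Atp5l and Ndufs4, the members with the lowest uninjured estimates, as the GRCm38.p6 sequence of the minus strand, chr7:140900397-140900696, chr9:44920693-44920992 and chr13:114388045-114388344. Each runs from 250 bases before to 50 bases after the start, and matches to the motifs searched are in capitals.
Cox8b: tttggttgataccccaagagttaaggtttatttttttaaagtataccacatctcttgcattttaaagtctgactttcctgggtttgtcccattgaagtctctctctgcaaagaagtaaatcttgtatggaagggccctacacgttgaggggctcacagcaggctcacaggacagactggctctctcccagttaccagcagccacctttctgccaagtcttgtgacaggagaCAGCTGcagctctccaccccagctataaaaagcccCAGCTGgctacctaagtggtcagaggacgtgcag
Atp5l: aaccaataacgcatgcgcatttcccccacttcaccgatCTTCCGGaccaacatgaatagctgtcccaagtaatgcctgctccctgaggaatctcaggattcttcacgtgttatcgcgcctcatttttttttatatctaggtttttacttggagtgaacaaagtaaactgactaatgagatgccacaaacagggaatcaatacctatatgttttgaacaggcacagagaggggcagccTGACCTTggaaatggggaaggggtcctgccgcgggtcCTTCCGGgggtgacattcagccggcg
Ndufs4: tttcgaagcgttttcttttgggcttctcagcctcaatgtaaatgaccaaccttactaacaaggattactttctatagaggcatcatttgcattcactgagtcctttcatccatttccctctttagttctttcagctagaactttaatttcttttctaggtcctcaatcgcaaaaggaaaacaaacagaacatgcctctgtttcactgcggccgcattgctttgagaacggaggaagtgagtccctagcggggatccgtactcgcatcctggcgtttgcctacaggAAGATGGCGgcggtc

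In the Cox8b promoter the capitals are the E-box CAGCTG, the type of site bound by myogenic factors, which begins 19 bases before and 17 bases after the start. The peak covers bases -101 to 30 around the start and so holds both. The Atp5l promoter has the ETS motif CCGGAAG (read as CTTCCGG on this strand) beginning at bases -212 and 25, and the oestrogen-related receptor motif AAGGTCA (read as TGACCTT) at -13. The Ndufs4 promoter has the YY1 motif AAGATGGCG at base 36.

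In all, 6 motifs were searched on both strands of the 300-base windows, and no 2 matches overlap in the 3 sequences shown. ETS matches were found in 16 of 65 members (24.6%) and in 9.93% of 27025 genes. For YY1 the counts were 7 members (10.8%, against 1.64%), for the NRF1 palindrome 5 (7.69%, against 1.07%) and for the oestrogen-related receptor motif 8 (12.3%, against 5.38%). The E-boxes CAGCTG and CACCTG were found in 6 (9.23%, against 18.3%) and 14 members (21.5%, against 22.6%). Respiratory genes are known for NRF1, ETS and YY1 sites in their promoters. A match is a stretch of letters and was not tested as a site.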

How the data were processed

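RNA was extracted with Trizol and TruSeq RNA v2 libraries were made, per the labels' protocols. The submitters' processing notes name HISAT2 2.1.0, SAMtools, featureCounts, DESeq2, Bowtie 1.1.0 and MACS2 2.1.0.20140616 and the builds mm10 and GRCm38.p5, with no role or order. Strand use and the handling of reads with several matches are not given in the sources used here. The deposited tables hold 49585 genes in RPM, scaled by the authors to a common total per library, with the authors' deposited log2 fold change, p-value and q-value per gene. The deposited peak list gives for 12898 peaks the fold enrichment, −log10 p-value and q-value and the signal (pileup) at the summit. Per the file headers the q cutoff was 0.05, 1 read was kept per position and reads were extended to 127 bp.

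Whole reads were recovered from RPM: 100% of the values tested came out whole within 0.1 read. A gene entered a fit when 3 or more of its libraries reached 1 RPM, and was tested with limma 3.58.1 (moderated test with trend) on log2(RPM + 1), a scale that understates changes of low genes, with Benjamini-Hochberg adjustment over all genes tested. KO was compared with WT in the 6 libraries of each state, and injury and its interaction with genotype in all 12. Replicates are separate animals by their numbers. edgeR 4.0.16 and DESeq2 1.42.0 on the recovered reads (R 4.3.3), other scalings and filters and leaving out libraries were alternatives. On simulated data the main fits were checked first. Those counts had the same spread for all genes and no difference between libraries beyond depth and the planted changes. The check therefore does not measure how often the fits err on these libraries. Same-numbered WT and KO libraries are different animals and were not paired in the main fits. The legs of an animal pair in the injury comparisons, but the main fit had no term for the animal. Pairing them was an alternative.

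Members named with every value were, by rule, the one with the highest mean and those with the highest and lowest KO estimates in each complex and state, and the isoform pairs. Cox6c, Cox7b, Ndufa12's pseudogene and the genes with a wide spread were added after their values were seen. The members and lists were chosen with earlier results of these data known.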

Additional observations from a re-analysis of the deposited data

Results flagged for a closer look

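The change of Cox4i2 from the uninjured to the injured leg was marked because every WT animal moved up (by 0.03, 0.17 and 0.63 on the log2 scale) and every KO animal moved down (-0.37, -0.56 and -0.0019). The interaction of genotype with injury was -0.59 (SE 0.44; limma on all 12 libraries, Benjamini-Hochberg adjusted p = 0.9999), so the difference did not pass the test. Cox4i2 lay between 1.55 and 7.24 RPM, near the filter on low values. Of 31 results looked at in this way, 1 was marked.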

How the results depend on the processing

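In uninjured muscle the members' median followed the scaling: 0.084 with upper quartile, 0.017 with TMM and -0.33 with scaling outside the mt- genes, 0.15 by edgeR and 0.15 by DESeq2, and -0.25 to -0.016 when 1 library was left out (-0.016 without KO uninjured 3), against -0.18. Over all genes the median was 0.04, -0.02 and -0.32 under the 3 scalings, against -0.18. The log2 ratio of the summed members became 0.12, 0.039 and -0.35 under the 3 scalings, and that of complex IV -0.074 with upper quartile and -0.15 with TMM. Lower members without overlap numbered 7 with upper quartile and 9 with TMM scaling, and 6 in both states with upper quartile. Members called were 3 with scaling outside the mt- genes, 2 by DESeq2 and 4 with all 12 libraries in 1 fit. The replicate block joins same-numbered WT and KO libraries, which are different animals. Their correlations were 0.034, 0.26 and 0.38 in uninjured and -0.47, -0.61 and -0.30 in injured muscle. Those between different numbers ran from -0.33 to 0.098 and from -0.55 to 0.65. Whether libraries of 1 number share a batch was not tested. The block gave 8 called members uninjured (6.04% of genes) and 0 injured, and edgeR with the block 0 in both. In the injury comparisons, where it pairs legs, the block changed no adjusted call. Uninjured and injured libraries of 1 animal number correlated at 0.28, -0.23 and 0.021 in WT and at 0.029, 0.51 and 0.64 in KO. Between different animal numbers the values ran from -0.42 to 0.32 in WT and from -0.62 to 0.49 in KO.

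In injured muscle 12 members were called by DESeq2, 5 by the authors' q-values and 0 to 22 when 1 library was left out, with 29 to 47 lower without overlap. The highest values come from leaving out KO injured 2, whose cause was not tested. The injury median in WT was -0.14 with scaling outside the mt- genes, and in KO -0.51 with upper quartile, -0.42 with TMM, -0.45 by edgeR and -0.46 by DESeq2. The interaction median was -0.38, -0.30 and 0.064 under the 3 scalings, -0.37 by edgeR, -0.36 by DESeq2 and -0.24 to -0.029 with 1 library left out. Peaks lay near 2 of 65 members within 1 kb (3.08%, against 2.73% of genes). At a fold of 10 or more they lay within 5 kb of 2 members (3.08%, against 1.89% of 27025 genes).

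Signs of uninjured estimates turned for Ndufb9 (0.25 upper quartile, 0.18 TMM, 0.22 edgeR, 0.23 DESeq2, 0.18 edgeR with the replicate block), Cox8b (0.037 upper quartile, 0.19 edgeR, 0.20 DESeq2), Cox4i1 (0.061, 0.032 and 0.041 likewise), and, with scaling outside the mt- genes, Sdhb (-0.080) and Atp5g1 (-0.054). Injured signs turned for Sdhd (0.000771 edgeR, 0.014 DESeq2) and Atp5g2 (0.15 edgeR, 0.17 DESeq2, 0.021 edgeR with the replicate block). Leaving out 1 library turned some signs. The uninjured ranges were -0.060 to 0.38 for Atp5g1, -0.11 to 0.085 for Ndufb9, -1.25 to 0.27 for Sdhd, -0.37 to 1.36 for Uqcrc2 and -0.54 to 0.17 for Cox8b. The injured ranges were -0.096 to 0.078 for Sdhb, -0.43 to 1.02 for Uqcrc2, -0.29 to 0.32 for Ndufs3, -0.46 to 0.43 for Sdhd, -0.33 to 0.58 for Atp5g2, -0.085 to 0.48 for Sdhc and -0.52 to 0.12 for Atp5g1. The injured log2 ratios of Cox7a1 over Cox7a2 ranged from -0.023 to 0.35 and of Atp5g1 over Atp5g3 from -0.057 to 0.19. In these cases the cause was not tested. Depth limits WT uninjured 2 most, where 3 reads equal 1.60 RPM.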
